A study of Homo sapiens with 6 samples.

Results

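Transcripts of 48 genes of the autophagy machinery, out of 19775 genes named on the arrays, were measured in PC3 cells, a human cell line from prostate cancer. The 48 genes were chosen by name for their place in the pathway, with earlier results of these data known. Every probe set whose platform annotation named a single one of them was used, which gave 127 probe sets. The cells had been transfected for 72 h with a pool of siRNAs against NRP-2, a pool against VEGF-C or a scrambled siRNA, and each of these 3 groups had 2 arrays. VEGF-C is a growth factor of lymphatic vessels and NRP-2 (neuropilin-2) is one of its co-receptors. All cells grew in medium with serum and received siRNA, so no untransfected cells enter the comparisons. A single pool was used per target, the NRP-2 and VEGF-C pools came from different suppliers per the labels' protocols, and target and pool cannot be told apart. Nothing in the labels says whether the 2 arrays of a group stem from different cultures, and the p-values therefore cover the spread between arrays, which may be technical. Autophagic flux was not analysed here, and all values are transcript levels.

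Autophagy encloses cytoplasm in a double membrane, the autophagosome, and delivers it to the lysosome. The ULK kinase complex starts the process. A lipid kinase complex around PIK3C3 then marks the membrane with phosphatidylinositol 3-phosphate (PI3P), lipid transfer proteins and scramblases enlarge it, and ubiquitin-like reactions attach LC3 and GABARAP proteins to it. Receptors that bind LC3 or GABARAP load the cargo, and tethers and SNARE proteins fuse the finished autophagosome with the lysosome. The 48 genes were grouped by these steps into initiation (5 genes), PI3P nucleation (10), membrane supply (6), conjugation (15), receptors (6) and fusion (6).

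Values are deposited log2 values of the brightest probe set of a gene, and a difference is a difference of group means on the log2 scale with its standard error (SE). All 48 genes passed the minimum set on brightness, a probe-set mean of log2 4 or more, and the means of their brightest probe sets ran from log2 5.48 to 13.22. The targeted transcript VEGFC stood at log2 11.99 and 11.67 on the NRP-2 arrays, 8.46 and 7.27 on the VEGF-C arrays and 11.81 and 11.80 on the scrambled arrays. NRP2 stood at 3.41 and 2.81 on the NRP-2 arrays, 5.51 and 6.01 on the VEGF-C arrays and 4.77 and 4.92 on the scrambled arrays, a dim probe set. The difference was -1.74 (SE 0.26, adjusted p = 0.213) for NRP2 with NRP-2 siRNA and -3.95 (SE 0.39, adjusted p = 0.204) for VEGFC with VEGF-C siRNA, both against scrambled siRNA, and NRP2 was at +0.91 (SE 0.26, adjusted p = 0.257) with VEGF-C siRNA. Markers of the line were bright on every array, with EPCAM between 14.31 and 14.80 and KRT18 between 13.72 and 14.14, while the leukocyte genes PTPRC and CD14 had no value above 3.44 and 1.83. KLK3 (prostate-specific antigen), usually low in PC3, ran from 6.26 to 6.87. Of the endothelial and fibroblast genes, LUM had no value above 3.25, but PECAM1 ran from 9.17 to 10.93 and COL3A1 from 7.04 to 8.75, and their part in the results was not tested. The mean of 15 genes of G2 and mitosis differed between arrays of the same group. It was 10.86 and 9.87 on the NRP-2 arrays, 11.07 and 10.28 on the VEGF-C arrays and 10.14 and 8.52 on the scrambled arrays, and its part in the results below was not tested.

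The autophagy genes had median differences near 0, and single genes differed in both directions. The median was +0.02 for VEGF-C siRNA against scrambled siRNA, -0.04 for NRP-2 siRNA against scrambled siRNA and -0.09 for NRP-2 siRNA against VEGF-C siRNA, where the medians of all 11131 genes tested were within 0.02 of 0. Single genes ranged from -0.65 (TP53INP2) to +1.16 (EPG5) with VEGF-C siRNA and from -1.36 (ATG13) to +0.70 (WIPI1) with NRP-2 siRNA. No member passed limma's Benjamini-Hochberg adjusted p of 0.05 over all genes (0.0% of all genes called in each of the 3 comparisons), and the lowest adjusted p among members was 0.204 for VEGF-C against scrambled siRNA, 0.213 for NRP-2 against scrambled siRNA and 0.118 for NRP-2 against VEGF-C siRNA. Genes are therefore described below by their values, and "nominally" marks an unadjusted limma p under 0.05.

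With VEGF-C siRNA, 10 of 48 members (20.8%) were nominally different from scrambled siRNA, against 14.8% of all genes tested. Of these, 8 were higher (6.95% of all genes) and 2 lower (7.8% of all genes). With NRP-2 siRNA, 8 of 48 members (16.7%) were nominally different from scrambled siRNA, against 13.3% of all genes, with 4 higher (6.43% of all genes) and 4 lower (6.85% of all genes). Between the siRNAs, 12 of 48 members were nominally different, against 18.2% of all genes, with 3 higher (9.54% of all genes) and 9 lower (8.66% of all genes) with NRP-2 siRNA. Both VEGF-C arrays lay above both scrambled arrays for 16 members (26.8% of all genes) and below them for 11 (26.6% of all genes). Both NRP-2 arrays lay above both scrambled arrays for 12 members (25.3% of all genes) and below them for 14 (24.4% of all genes). Each pair of these comparisons shares a group of arrays, so their counts are not independent. The counts rested on few arrays, and leaving 1 out also leaves fewer residual degrees of freedom. For VEGF-C against scrambled siRNA the count was 3 without VEGF-C array 2, without scrambled array 1 or without scrambled array 2, where 11.1%, 9.34% and 5.98% of all genes were nominally different. For NRP-2 against scrambled siRNA it was 2 without NRP-2 array 1, 3 without scrambled array 1 and 4 without scrambled array 2, with 7.65%, 6.55% and 7.44% of all genes. With the mean of all probe sets in place of the brightest, 5 of 48 members (10.4%) were nominally different for VEGF-C against scrambled siRNA, below the 14.1% of all genes under that setting.

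**Figure D1:**
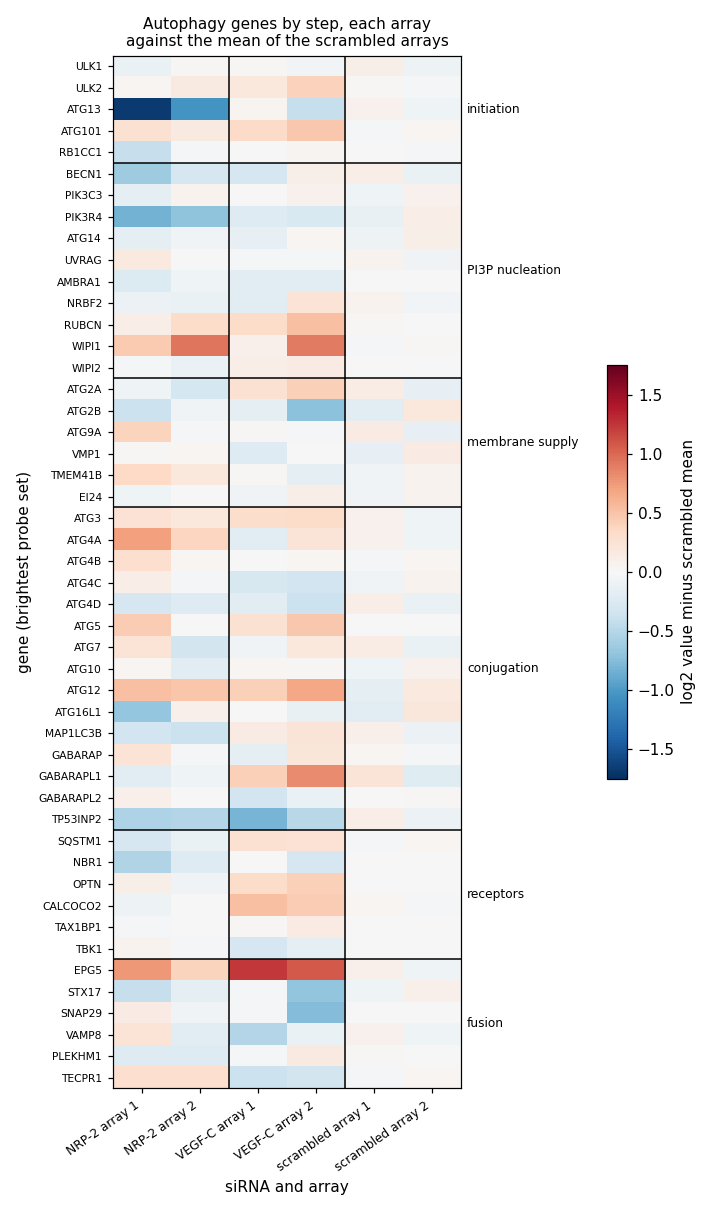
Each row is an autophagy gene (brightest probe set), grouped by step, and each column an array, with NRP-2 siRNA at the left, VEGF-C siRNA in the middle and scrambled siRNA at the right. Colour gives the log2 value minus the mean of the scrambled arrays. Rows of both colours stand in every step, with ATG13 at -1.36 on average with NRP-2 siRNA and EPG5 at +1.16 with VEGF-C siRNA as the strongest.

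Among the initiation genes, ATG13, the scaffold subunit that ties the ULK kinases to the complex, was the member with the largest difference in any comparison. Its values were log2 7.67 and 8.31 on the NRP-2 arrays, 9.40 and 8.95 on the VEGF-C arrays and 9.43 and 9.27 on the scrambled arrays. Both NRP-2 arrays lay below all other arrays, while the VEGF-C and scrambled arrays overlapped. The difference was -1.36 (SE 0.27, 2.57-fold lower) for NRP-2 against scrambled siRNA, with limma's adjusted p at 0.218. Against VEGF-C siRNA it was -1.19 (SE 0.27, adjusted p = 0.135). For NRP-2 against scrambled siRNA the 3 probe sets of ATG13 had the same sign but unlike sizes, since the dimmer ones gave -0.43 and -0.18, and the mean of the probe sets gave -0.66. ATG101, which binds and stabilises ATG13, stood at 10.81 and 10.71 on the NRP-2 arrays, 10.88 and 11.02 on the VEGF-C arrays and 10.53 and 10.58 on the scrambled arrays. The arrays of the targeting siRNAs lay above the scrambled arrays, and the difference was +0.40 (SE 0.12, adjusted p = 0.268) for the VEGF-C pool and +0.21 (adjusted p = 0.49) for the NRP-2 pool. The kinase genes ULK1 and ULK2 and the scaffold gene RB1CC1 (FIP200) were between -0.22 and +0.29 in both comparisons with scrambled siRNA, none of them nominally different. For NRP-2 against VEGF-C siRNA the 5 initiation genes ranged from -1.19 to -0.03, where 5265 of all 11131 genes were below 0, and the value of ULK1 (-0.03) was smaller than its SE of 0.13.

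In the PI3P step, PIK3R4 (VPS15), the regulatory subunit that holds the lipid kinase PIK3C3 (VPS34) in its complexes, was nominally lower with NRP-2 siRNA. PIK3R4 had values of 8.15 and 8.28 on the NRP-2 arrays, 8.75 and 8.71 on the VEGF-C arrays and 8.85 and 9.10 on the scrambled arrays. The groups did not overlap, in the order NRP-2, VEGF-C, scrambled. The difference was -0.76 (SE 0.14, 1.69-fold lower, adjusted p = 0.213) for NRP-2 against scrambled siRNA and -0.51 (SE 0.14, adjusted p = 0.173) for NRP-2 against VEGF-C siRNA. With VEGF-C siRNA it was -0.25 (adjusted p = 0.459) against scrambled siRNA. Its other 2 probe sets did not reach the minimum mean. The catalytic subunit gene PIK3C3 itself was at -0.05 and +0.04, and the autophagosome-specific subunit gene ATG14 at -0.11 and -0.05, for the NRP-2 and VEGF-C pools against scrambled siRNA. BECN1 (Beclin 1), the core adaptor of the complex, was at -0.46 (SE 0.20, adjusted p = 0.407) with NRP-2 siRNA, with both NRP-2 arrays below both scrambled arrays. RUBCN (Rubicon), an inhibitor of the PIK3C3 complex that contains UVRAG, stood at 9.57 and 9.78 on the NRP-2 arrays, 9.78 and 9.98 on the VEGF-C arrays and 9.48 and 9.45 on the scrambled arrays. It was higher than with scrambled siRNA on all 4 other arrays, by +0.42 (SE 0.14, adjusted p = 0.298) for the VEGF-C pool and +0.21 (adjusted p = 0.528) for the NRP-2 pool. The dimmer RUBCN probe set gave +0.60 for the VEGF-C pool and +0.84 for the NRP-2 pool.

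WIPI1 and WIPI2 bind PI3P on the forming membrane. WIPI1 stood at 10.77 and 11.24 on the NRP-2 arrays, 10.40 and 11.22 on the VEGF-C arrays and 10.28 and 10.33 on the scrambled arrays, so that every array of a targeting siRNA was above the scrambled arrays but the VEGF-C arrays differed by 0.81, the widest gap of any member between those arrays. Its difference was +0.70 (SE 0.31, adjusted p = 0.401) for the NRP-2 pool and +0.50 (SE 0.31, adjusted p = 0.479) for the VEGF-C pool, and its other probe set gave +0.78 and +0.63 in the same order. WIPI2, which recruits ATG16L1, was at -0.07 and +0.13.

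Of the 6 genes of membrane supply, none was nominally different from scrambled siRNA with either siRNA (14.8% of all genes for VEGF-C and 13.3% for NRP-2 siRNA), and ATG2A was the 1 nominal difference between the siRNAs (18.2% of all genes). Counts this small do not set the step apart from all genes. ATG2A, a lipid transfer protein that feeds the growing membrane from the endoplasmic reticulum, had values of 9.16 and 8.92 on the NRP-2 arrays, 9.49 and 9.65 on the VEGF-C arrays and 9.36 and 9.09 on the scrambled arrays. NRP-2 arrays were below VEGF-C arrays by -0.54 (SE 0.16, adjusted p = 0.197), while the scrambled arrays overlapped the NRP-2 arrays. Its paralogue ATG2B was at +0.23 in the same comparison. The scramblase genes ATG9A (+0.19), TMEM41B (+0.34) and VMP1 (+0.13) were higher with NRP-2 than with VEGF-C siRNA without passing the nominal threshold. VMP1 was read by a single probe set, because its 3 other probe sets also name MIR21, the microRNA gene that overlaps it.

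**Figure D2:**
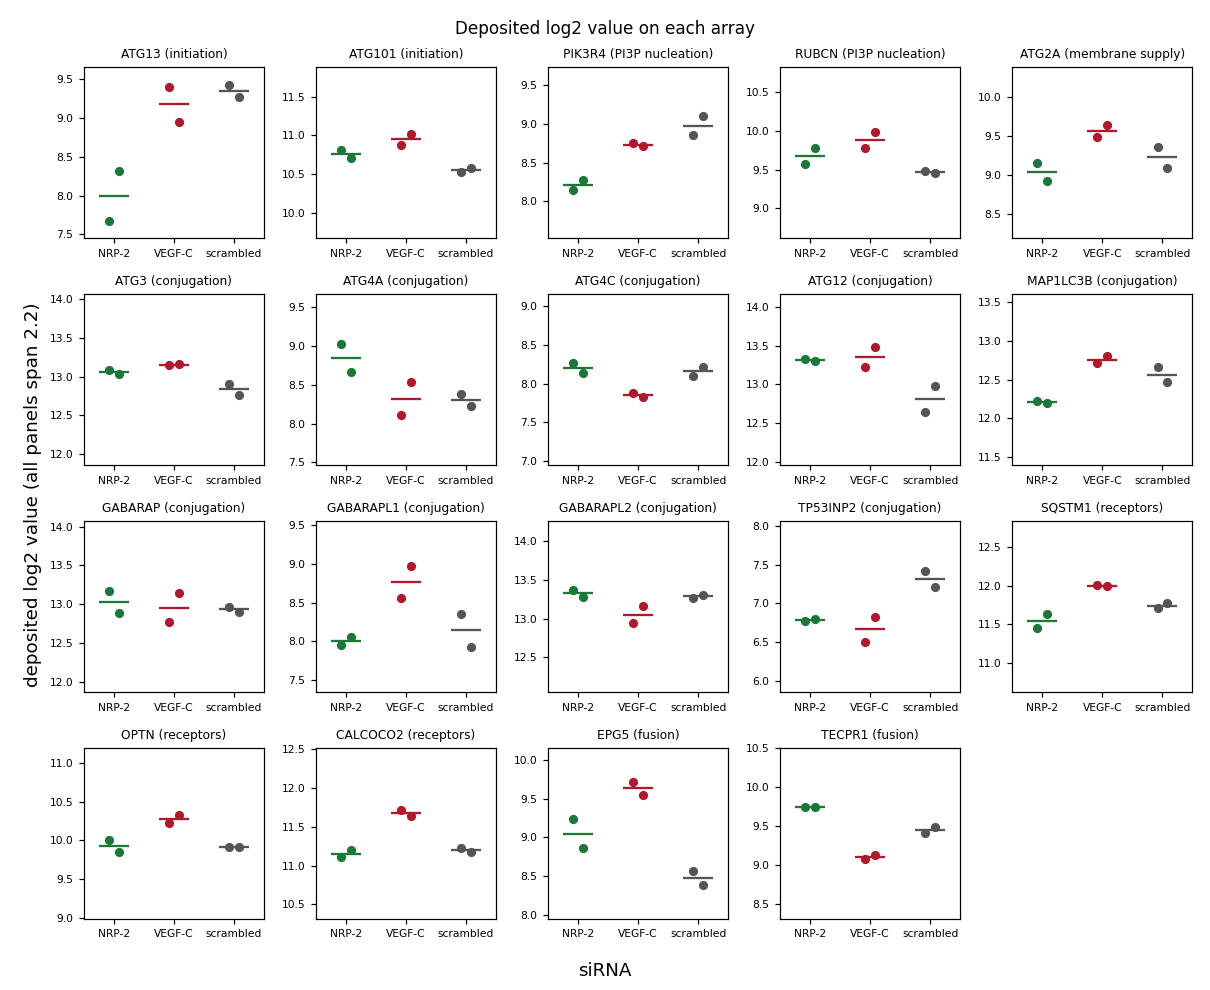
Each panel shows the deposited log2 values of a gene on the 2 arrays of NRP-2, VEGF-C and scrambled siRNA (points) with their mean (line), and every panel spans 2.2 log2 units. The NRP-2 arrays of ATG13 sit at 7.67 and 8.31, below all others, and the VEGF-C arrays of EPG5 at 9.71 and 9.55, above all others.

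Among the conjugation genes, ATG12, the ubiquitin-like protein joined to ATG5, was nominally higher with both siRNAs. Its values were 13.33 and 13.30 on the NRP-2 arrays, 13.23 and 13.48 on the VEGF-C arrays and 12.64 and 12.98 on the scrambled arrays. The scrambled arrays lay below the other 4, with differences of +0.51 (SE 0.17, adjusted p = 0.315) for the NRP-2 pool and +0.55 (SE 0.17, adjusted p = 0.272) for the VEGF-C pool. These comparisons share the scrambled arrays. Neither was nominal without scrambled array 1, the lower of them; that of VEGF-C siRNA was also lost without VEGF-C array 2 or with the mean of all probe sets, and that of NRP-2 siRNA without either NRP-2 array (over all alternatives, +0.34 to +0.67 for the NRP-2 pool and +0.38 to +0.71 for the VEGF-C pool). ATG3, the E2-like enzyme that attaches LC3 to lipid, stood at 13.09 and 13.03 on the NRP-2 arrays, 13.15 and 13.16 on the VEGF-C arrays and 12.91 and 12.76 on the scrambled arrays. It showed the same order at a smaller size, +0.23 (SE 0.12, adjusted p = 0.464) for the NRP-2 pool and +0.32 (SE 0.12, adjusted p = 0.328) for the VEGF-C pool. The E1-like gene ATG7 (-0.05 and +0.06) and the ATG12-specific E2-like gene ATG10 (-0.08 and +0.03) are given for the NRP-2 and then the VEGF-C pool against scrambled siRNA, and neither was nominally different. The probe sets of ATG5 disagreed, with +0.22, +0.63 and +0.18 for NRP-2 against scrambled siRNA and +0.36, -0.10 and +0.43 for VEGF-C against scrambled siRNA, the brightest given at the start of each.

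ATG4 proteases prepare LC3 and GABARAP and later free them from the membrane. ATG4A, which acts best on GABARAP proteins, stood at 9.02 and 8.67 on the NRP-2 arrays, 8.11 and 8.53 on the VEGF-C arrays and 8.38 and 8.22 on the scrambled arrays. Its NRP-2 arrays were above all others, by +0.54 (SE 0.20, adjusted p = 0.356) against scrambled siRNA and +0.52 (SE 0.20, adjusted p = 0.266) against VEGF-C siRNA. ATG4C had 8.27 and 8.13 on the NRP-2 arrays, 7.88 and 7.83 on the VEGF-C arrays and 8.10 and 8.22 on the scrambled arrays. Here the VEGF-C arrays were the low ones, and the difference for NRP-2 against VEGF-C siRNA was +0.35 (SE 0.12, adjusted p = 0.245). ATG4B was at +0.17 and +0.01, and ATG4D at -0.27 and -0.28, for the NRP-2 and VEGF-C pools against scrambled siRNA.

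The LC3 and GABARAP genes, whose products are the tags placed on the membrane, did not share a pattern. MAP1LC3B, the usual marker of autophagosomes, had values of 12.23 and 12.20 on the NRP-2 arrays, 12.72 and 12.80 on the VEGF-C arrays and 12.66 and 12.47 on the scrambled arrays. The groups did not overlap, with NRP-2 lowest and VEGF-C highest. MAP1LC3B was lower with NRP-2 siRNA by -0.54 (SE 0.13, adjusted p = 0.141) against VEGF-C siRNA and by -0.35 (SE 0.13, adjusted p = 0.347) against scrambled siRNA. GABARAPL1 had values of 7.96 and 8.06 on the NRP-2 arrays, 8.56 and 8.97 on the VEGF-C arrays and 8.36 and 7.93 on the scrambled arrays. Its VEGF-C arrays were above all others, and the scrambled arrays spread over the range of the NRP-2 arrays. The difference was +0.62 (SE 0.21, adjusted p = 0.301) for VEGF-C against scrambled siRNA and -0.75 (SE 0.21, adjusted p = 0.177) for NRP-2 against VEGF-C siRNA. GABARAP stood at 13.17 and 12.89 on the NRP-2 arrays, 12.77 and 13.14 on the VEGF-C arrays and 12.97 and 12.90 on the scrambled arrays, with overlapping arrays throughout. GABARAPL2 stood at 13.37 and 13.28 on the NRP-2 arrays, 12.94 and 13.16 on the VEGF-C arrays and 13.27 and 13.30 on the scrambled arrays, so that its VEGF-C arrays were the low ones, at -0.23 (SE 0.13, adjusted p = 0.463) against scrambled siRNA. TP53INP2, which binds LC3 and GABARAP proteins and helps bring them to the membrane, was nominally lower with both siRNAs. Its values were 6.77 and 6.80 on the NRP-2 arrays, 6.5 and 6.83 on the VEGF-C arrays and 7.42 and 7.21 on the scrambled arrays. The differences against the shared scrambled arrays were -0.53 (SE 0.16, adjusted p = 0.3) for the NRP-2 pool and -0.65 (SE 0.16, adjusted p = 0.24) for the VEGF-C pool, and neither was nominal without scrambled array 1, nor that of NRP-2 siRNA without either NRP-2 array (-0.63 to -0.43 over all alternatives).

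Receptors link cargo to LC3 or GABARAP on the forming membrane. CALCOCO2 (NDP52), a receptor for bacteria and mitochondria, had values of 11.11 and 11.20 on the NRP-2 arrays, 11.72 and 11.64 on the VEGF-C arrays and 11.23 and 11.17 on the scrambled arrays. Only the VEGF-C arrays stood apart, above the other 4. CALCOCO2 was higher by +0.48 (SE 0.12, adjusted p = 0.238) with VEGF-C siRNA, and the difference for NRP-2 against VEGF-C siRNA was -0.52 (SE 0.12, adjusted p = 0.133), with +0.17 and -0.35 in these comparisons for its other probe set past the minimum. OPTN (optineurin), another receptor for mitochondria and bacteria, had values of 10.01 and 9.85 on the NRP-2 arrays, 10.23 and 10.33 on the VEGF-C arrays and 9.91 and 9.91 on the scrambled arrays. It showed the same order, at +0.37 (SE 0.12, adjusted p = 0.295) with VEGF-C siRNA and -0.35 (SE 0.12, adjusted p = 0.235) for NRP-2 against VEGF-C siRNA, but its other probe set gave +0.04 and +0.02. SQSTM1 (p62), the receptor for ubiquitinated protein aggregates, had values of 11.45 and 11.63 on the NRP-2 arrays, 12.01 and 11.99 on the VEGF-C arrays and 11.71 and 11.77 on the scrambled arrays. Its groups did not overlap, and NRP-2 siRNA was below VEGF-C siRNA by -0.46 (SE 0.13, adjusted p = 0.17), with -0.29 and +0.03 for its dimmer probe sets. Against scrambled siRNA SQSTM1 was at -0.20 (adjusted p = 0.51) for the NRP-2 pool and +0.26 (adjusted p = 0.395) for the VEGF-C pool. The other 3 genes of the step were not nominally different in any comparison. They were NBR1, a receptor related to SQSTM1, TAX1BP1, a receptor related to CALCOCO2, and TBK1, the kinase that phosphorylates several receptors. Between NRP-2 and VEGF-C siRNA the differences of these 3 were -0.21, -0.09 and +0.25. Of the 6 receptor genes, 4 had both VEGF-C arrays above both scrambled arrays (26.8% of all genes) and the other 2, NBR1 and TBK1, had both below (26.6% of all genes). This split rested on near ties in 2 of them. At the printed precision NBR1 was 11.47 on both VEGF-C array 1 and scrambled array 1. TAX1BP1, counted as above, was 12.73 on VEGF-C array 1 and 12.72 on scrambled array 2. None had both NRP-2 arrays above both scrambled arrays (25.3% of all genes) and 2 had both below (24.4% of all genes).

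Fusion genes included the largest difference with VEGF-C siRNA. EPG5, a tether that brings autophagosomes to late endosomes and lysosomes, had values of 9.23 and 8.86 on the NRP-2 arrays, 9.71 and 9.55 on the VEGF-C arrays and 8.56 and 8.39 on the scrambled arrays. The groups did not overlap, with VEGF-C highest and scrambled lowest. The difference was +1.16 (SE 0.17, 2.23-fold higher, adjusted p = 0.204) for VEGF-C against scrambled siRNA and +0.57 (SE 0.17, adjusted p = 0.297) for NRP-2 against scrambled siRNA. NRP-2 siRNA was lower than VEGF-C siRNA by -0.59 (SE 0.17, adjusted p = 0.186). Its other probe set past the minimum gave +0.35 for the VEGF-C pool and -0.02 for the NRP-2 pool, and the mean of both gave +0.75 and +0.27, of which +0.27 was not nominal. TECPR1, which binds the ATG12-ATG5 conjugate and PI3P at the lysosome, had values of 9.74 and 9.74 on the NRP-2 arrays, 9.07 and 9.13 on the VEGF-C arrays and 9.41 and 9.49 on the scrambled arrays. Here the order was turned, with NRP-2 highest, VEGF-C lowest and no overlap. TECPR1 differed by +0.64 (SE 0.11, 1.56-fold, adjusted p = 0.118) for NRP-2 against VEGF-C siRNA, the lowest adjusted p of any member. Against scrambled siRNA it was at +0.29 (SE 0.11, adjusted p = 0.373) for the NRP-2 pool and -0.35 (SE 0.11, adjusted p = 0.294) for the VEGF-C pool. All 3 TECPR1 probe sets shared these signs. The SNARE genes STX17, SNAP29 and VAMP8 were at -0.37, -0.39 and -0.32 with VEGF-C siRNA, with adjusted p of 0.51, 0.505 and 0.519. In the brightest probe sets of STX17 and SNAP29 this came mainly from VEGF-C array 2, at 9.60 and 8.54. VEGF-C array 1 stood at 10.25 and 9.28, close to the scrambled arrays. Their dimmer probe sets past the minimum were also lower, at -0.20, -0.27 and -0.62 for STX17 and -0.72 and -0.54 for SNAP29. The STX17 probe set at -0.62 had 8.97 and 8.58 on the VEGF-C arrays and 9.34 and 9.45 on the scrambled arrays. The SNAP29 probe set at -0.54 had 7.84 and 7.47 against 8.33 and 8.06. PLEKHM1, the adaptor between RAB7 and the fusion machinery, was at -0.29 (SE 0.12, adjusted p = 0.297) for NRP-2 against VEGF-C siRNA.

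**Figure D3:**
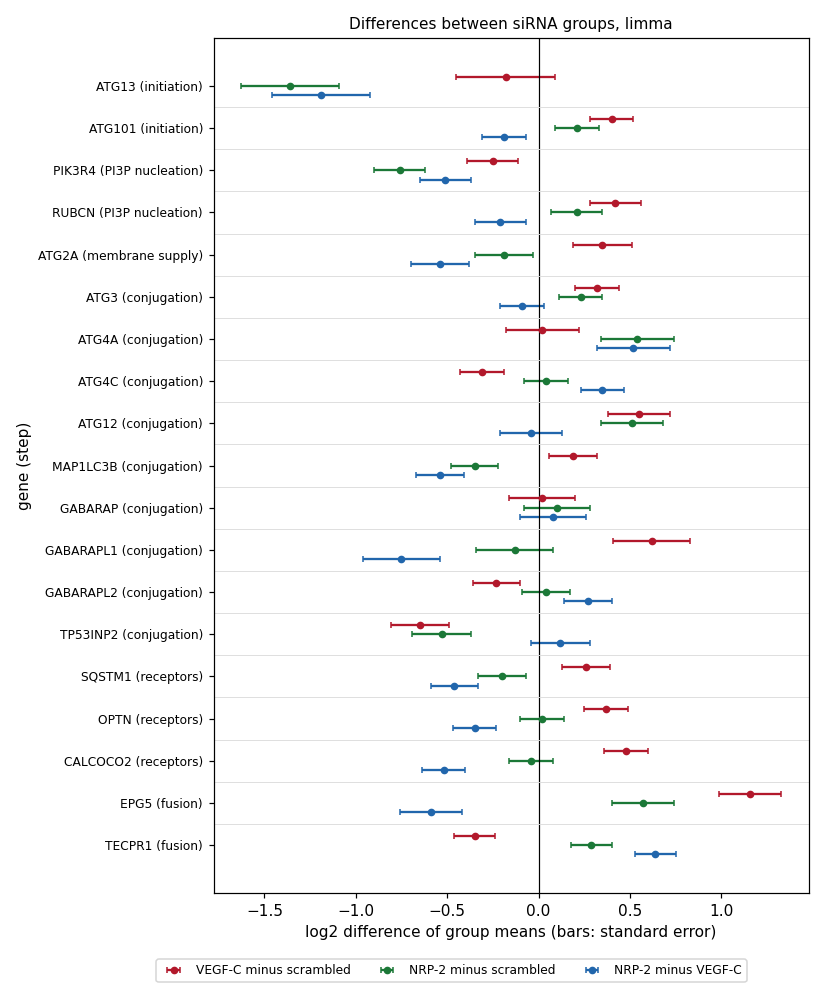
Points are log2 differences of group means and bars their standard errors from limma, for the 17 genes nominally different in at least 1 comparison plus GABARAP and GABARAPL2. Red is VEGF-C minus scrambled, green NRP-2 minus scrambled and blue NRP-2 minus VEGF-C siRNA. Red and blue share the VEGF-C arrays with opposite sign, so opposite signs of these colours are no separate result. Against scrambled siRNA, the green point of ATG13 (-1.36) and the red point of EPG5 (+1.16) lie farthest from 0.

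Set directly against each other, no member passed the adjusted threshold. NRP-2 siRNA gave nominally lower values than VEGF-C siRNA for ATG13, PIK3R4, ATG2A, MAP1LC3B, GABARAPL1, SQSTM1, OPTN, CALCOCO2 and EPG5, and nominally higher values for ATG4A, ATG4C and TECPR1. By step, the nominal genes were 1 of 5 in initiation, 1 of 10 in PI3P nucleation and 1 of 6 in membrane supply. Conjugation had 4 of 15, receptors 3 of 6 and fusion 2 of 6, where 18.2% of all genes were nominally different. The steps are small, and no step was tested against all genes. Of the 48 members, 17 had both NRP-2 arrays below both VEGF-C arrays (35.4%, with 22.4% of all genes) and 9 had them above (18.8%, with 24.1% of all genes). The differences of ATG13, MAP1LC3B, CALCOCO2 and TECPR1 in this comparison stayed nominal under all 11 alternatives tried, as did ATG13 and PIK3R4 for NRP-2 against scrambled siRNA and EPG5 for VEGF-C against scrambled siRNA. Of the 48 members none was past the adjusted threshold in a fit of all 41091 probe sets, where 28 probe sets passed for NRP-2 against VEGF-C siRNA and 0 in the other comparisons. The other 23 of the 30 nominal differences lost that mark under at least 1 alternative. Leaving out an array of the group not compared repeated the fit of only the compared arrays, so the 11 alternatives were not all distinct.

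Several of the nominal differences lost the mark when a single array was left out. That leaves 1 array in a group and fewer residual degrees of freedom, so the mark can be lost while the difference hardly moves. For VEGF-C against scrambled siRNA, ATG101 was at +0.40 with all arrays. It was at +0.38 without scrambled array 1 and +0.42 without scrambled array 2. With VEGF-C siRNA against scrambled siRNA, ATG101 (+0.33 to +0.47 over the alternatives) and RUBCN (+0.32 to +0.52) were not nominal without VEGF-C array 2 or either scrambled array, GABARAPL1 (+0.40 to +0.83) without VEGF-C array 2 or scrambled array 2, and CALCOCO2 (+0.33 to +0.52) without scrambled array 2 or, at +0.33, with the mean of its probe sets. OPTN (+0.20 to +0.42) was lost without VEGF-C array 2 or either scrambled array, and TECPR1 (-0.39 to -0.30) without any 1 of the VEGF-C or scrambled arrays, and both with the mean of their probe sets. ATG3 (+0.24 to +0.40) kept the mark under 2 of 11 alternatives, as did MAP1LC3B (-0.45 to -0.26) and TECPR1 (+0.20 to +0.33) for NRP-2 against scrambled siRNA. EPG5 (+0.27 to +0.76) in that comparison was lost without NRP-2 array 1 or scrambled array 2, and ATG4A (+0.37 to +0.72) without NRP-2 array 1 or either scrambled array, with no minimum mean or with replicate number as a block. For NRP-2 against VEGF-C siRNA, PIK3R4 (-0.58 to -0.45) was lost without array 1 of either group, EPG5 (-0.77 to -0.40) without VEGF-C array 1 or NRP-2 array 2, ATG2A (-0.66 to -0.42) without array 2 of either group, and GABARAPL1 (-0.95 to -0.55) without VEGF-C array 2 or NRP-2 array 1. SQSTM1 (-0.56 to -0.24) lost the mark only with the mean of its probe sets. ATG4A (+0.32 to +0.73) and ATG4C (+0.28 to +0.42) kept it under 4 of 11 alternatives and OPTN (-0.43 to -0.16) under 3. Each lost it with only the compared arrays, a fit that leaving out a scrambled array repeats. Each also lost it when certain single arrays of either compared group were left out. The sign of each of the 30 nominal differences was the same under every alternative tried. Differences that were not nominal could change sign, as ATG13 did for VEGF-C against scrambled siRNA (-0.18, and +0.05 without VEGF-C array 2).

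Agreement between probe sets of the same gene gives another view, although they were read from the same arrays. Of the 48 genes, 31 had at least 2 probe sets past the minimum. For VEGF-C against scrambled siRNA, 8 nominally different genes had several probe sets, and in all 8 of them the signs were the same. For NRP-2 against scrambled siRNA this held for 4 of 5, with EPG5 as the exception, and for NRP-2 against VEGF-C siRNA for 6 of 8, with OPTN and SQSTM1 as the exceptions. In OPTN the agreement for VEGF-C against scrambled siRNA rested on +0.04 (SE 0.18) for the dimmer probe set. The share of all genes with such agreement was not computed, so these counts have no background. Probe sets of a gene can read different transcript ends, and which transcripts they read was not analysed here.

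**Figure D4:**
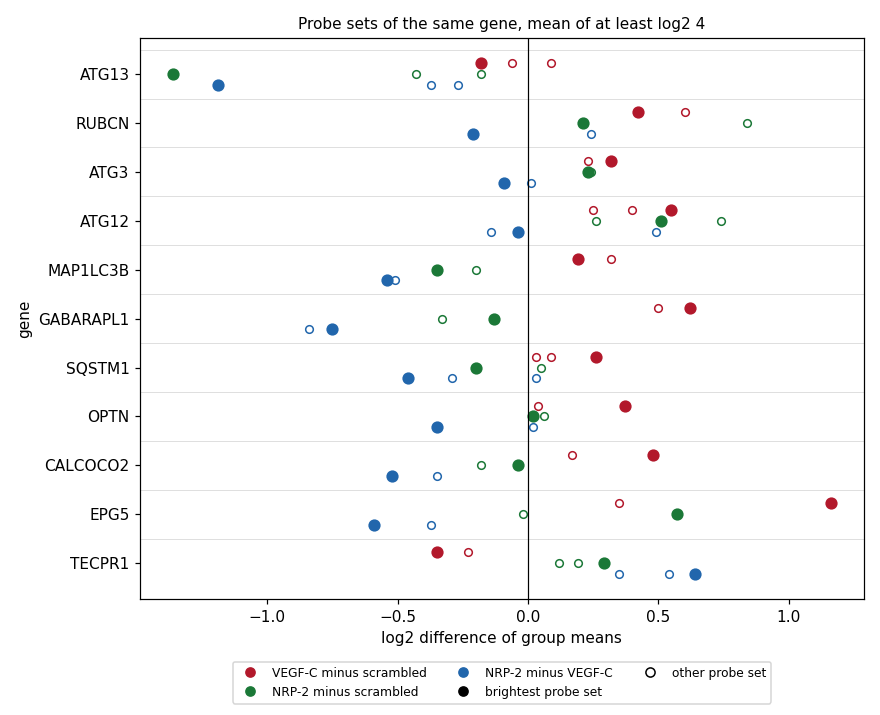
Each point is the log2 difference of a probe set with a mean of at least log2 4, for the 11 plotted genes with several such probe sets. Filled points are the brightest probe set and open points the others, with red for VEGF-C minus scrambled, green for NRP-2 minus scrambled and blue for NRP-2 minus VEGF-C siRNA. The points of ATG13 spread from -1.36 to -0.18 in green, and those of MAP1LC3B lie within -0.54 and -0.51 in blue.

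Promoter sequences were looked up to show which members carry either of the cores named below near their start sites. RefSeq windows of 300 bases (GRCh38.p14) were matched for 43 of the 48 members, with 53 windows in all. Each window was searched on both strands for CACGTG, the core of the element bound by TFEB, which controls lysosomal and autophagy genes, and for TGACNNNGC, the core of the antioxidant response element bound by NRF2. CACGTG was found in windows of 5 members (11.6%), namely ATG3, ATG14, NRBF2, SNAP29 and TBK1, and in 7.26% of all 35116 windows. TGACNNNGC was found in windows of 4 members (9.3%), namely ATG101, CALCOCO2, MAP1LC3B and TECPR1, and in 13.3% of all windows. Shares of members count a gene with any matching window, so a gene with several windows has more chances. The windows of CALCOCO2, MAP1LC3B and TECPR1 are shown because their genes carry the same core while CALCOCO2 and MAP1LC3B were lower, and TECPR1 higher, with NRP-2 than with VEGF-C siRNA. That of ATG3 is shown because it holds CACGTG at 2 places. Each runs 5′ to 3′ on the strand of the gene, and capitals mark the matches, which can lie on either strand. A match is a description of the letters and not evidence of binding.
CALCOCO2 lies at chr17:48830785-48831084 on the plus strand, MAP1LC3B at chr16:87392086-87392385 on the plus strand, TECPR1 at chr7:98252183-98252482 on the minus strand and ATG3 at chr3:112561913-112562212 on the minus strand.
CALCOCO2: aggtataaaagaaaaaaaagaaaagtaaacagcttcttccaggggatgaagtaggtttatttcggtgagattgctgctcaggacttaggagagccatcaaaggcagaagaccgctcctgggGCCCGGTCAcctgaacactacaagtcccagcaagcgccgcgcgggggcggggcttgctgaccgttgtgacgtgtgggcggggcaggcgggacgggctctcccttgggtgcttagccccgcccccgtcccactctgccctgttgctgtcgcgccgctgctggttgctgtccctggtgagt
MAP1LC3B: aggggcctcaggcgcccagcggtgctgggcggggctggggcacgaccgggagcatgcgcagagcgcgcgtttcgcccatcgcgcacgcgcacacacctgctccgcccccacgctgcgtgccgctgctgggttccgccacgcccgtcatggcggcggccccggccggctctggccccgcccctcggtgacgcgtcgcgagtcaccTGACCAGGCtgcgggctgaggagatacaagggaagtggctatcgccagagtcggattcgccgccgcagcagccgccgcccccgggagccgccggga
TECPR1: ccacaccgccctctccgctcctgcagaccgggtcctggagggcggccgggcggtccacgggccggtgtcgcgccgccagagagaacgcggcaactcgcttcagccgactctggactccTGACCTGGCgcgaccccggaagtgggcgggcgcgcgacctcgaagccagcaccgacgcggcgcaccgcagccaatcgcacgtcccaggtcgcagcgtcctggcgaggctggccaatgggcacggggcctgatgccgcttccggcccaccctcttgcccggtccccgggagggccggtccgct
ATG3: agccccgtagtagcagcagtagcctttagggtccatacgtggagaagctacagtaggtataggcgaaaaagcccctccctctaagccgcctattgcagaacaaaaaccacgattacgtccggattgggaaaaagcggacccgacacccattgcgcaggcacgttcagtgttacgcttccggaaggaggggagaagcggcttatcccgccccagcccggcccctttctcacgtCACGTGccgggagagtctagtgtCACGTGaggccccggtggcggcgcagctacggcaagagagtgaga

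A further 37 autophagy genes outside the 48 were listed from general knowledge, and 28 of them passed the minimum mean. With VEGF-C siRNA 4 of the 28 were nominally different from scrambled siRNA (14.3%, with 14.8% of all genes), with NRP-2 siRNA 1 of 28 (3.57%, with 13.3% of all genes), and 1 of 28 between the siRNAs (3.57%, with 18.2% of all genes). RTN3, an endoplasmic reticulum protein that serves as an autophagy receptor for tubules, had values of 11.26 and 11.40 on the NRP-2 arrays, 11.49 and 11.32 on the VEGF-C arrays and 11.98 and 11.88 on the scrambled arrays. It was lower than on the shared scrambled arrays with both siRNAs, by -0.60 (SE 0.13, adjusted p = 0.229) for the NRP-2 pool and -0.53 (SE 0.13, adjusted p = 0.241) for the VEGF-C pool. The AMPK catalytic subunit gene PRKAA2 (-0.62, adjusted p = 0.233) and the mitophagy receptor gene FUNDC1 (-0.42, adjusted p = 0.338) were nominally lower with VEGF-C siRNA. WDR41, a partner of C9orf72 and SMCR8, was nominally higher (+0.58, adjusted p = 0.308). WDR45, a PI3P-binding relative of WIPI1 and WIPI2, was at -0.78 (SE 0.25, adjusted p = 0.208) for NRP-2 against VEGF-C siRNA. The tag genes MAP1LC3A, MAP1LC3C, MAP1LC3B2 and GABARAPL3 were among the 8 listed genes under the minimum, with no value above log2 3.09.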

How the data were processed

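HG-U133 Plus 2.0 arrays from Affymetrix measured the RNA of 6 PC3 samples. The values are log2 per probe set as deposited; the submitters' processing notes name Partek and GCRMA, with no version or setting. GCRMA corrects background, normalizes arrays to each other and can compress values near the floor. Array medians spread over 0.07. Detection calls were not used here, and precision is limited by how few arrays there are.

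Of 54675 probe sets, 41091 had 1 gene in the platform annotation, 1801 had several and 11721 had none. Of the 41091, those averaging log2 4 or more were kept (19946), and each of 11131 genes was represented by its brightest probe set. All 6 arrays entered 1 fit in limma 3.58.1 (R 4.3.3, lmFit and eBayes, two-sided), with 3 residual and 2.46 prior degrees of freedom, Benjamini-Hochberg adjustment over all genes and 3 comparisons. A second fit took all 41091 probe sets without a minimum. Probe-set differences come from it. The fit was also run on simulated data with seeded changes. How often it finds changes as small as those of the members is not given here.

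The members, steps and lists were chosen with earlier results of these data known. Members with an unadjusted p under 0.05 in any comparison, and the 4 LC3 and GABARAP genes, were given in every array; up to 6 other autophagy genes with the smallest p were named. Alternatives were no minimum, the mean of all probe sets, equal medians, only the compared arrays, a replicate block and leaving out each array.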

Additional observations from a re-analysis of the deposited data

Results flagged for a closer look

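Of the 48 autophagy genes, 4 (8.33%) had all arrays of the targeting siRNAs on opposite sides of the scrambled arrays, against 7.62% of all genes tested, so this ordering was about as common among the members as in general. MAP1LC3B was at -0.35 for the NRP-2 pool and +0.19 for the VEGF-C pool against scrambled siRNA. SQSTM1 was at -0.20 for the NRP-2 pool and +0.26 for the VEGF-C pool. TECPR1 was at +0.29 for the NRP-2 pool and -0.35 for the VEGF-C pool. WIPI2 was at -0.07 for the NRP-2 pool and +0.13 for the VEGF-C pool. Whether the siRNAs moved these genes in opposite directions was not tested. Groups of 2 arrays are too small for a test of single outlying arrays.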

How the results depend on the processing

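With all 6 arrays 10 members were nominally different for VEGF-C against scrambled siRNA, 8 for NRP-2 against scrambled siRNA and 12 for NRP-2 against VEGF-C siRNA. Leaving out 1 array at a time gave 3 to 13, 2 to 8 and 8 to 11 members. The share of all genes nominally different also changed with the array left out, but not always in step with the share of members. Whether the swing of these counts is particular to the members was not tested. The mean of all probe sets gave 5 members for VEGF-C against scrambled siRNA (10.4%, with 14.1% of all genes). Of the 10, 8 and 12, it kept 5, 5 and 10 with the same sign. The median difference of the members was +0.02 for VEGF-C against scrambled siRNA and ran from -0.00337 to +0.06 over single arrays left out; averaging probe sets gave -0.04 and equal array medians +0.04. For NRP-2 against scrambled siRNA the median was -0.04 and ran from -0.04 to +0.00051, where averaging probe sets gave 0.00116 and equal array medians -0.01. For NRP-2 against VEGF-C siRNA it was -0.09 and ran from -0.14 to -0.04, with +0.01 for the mean of all probe sets. Genes past limma's adjusted p numbered 0 in each comparison (1642, 1478 and 2026 at an unadjusted p under 0.05), 0 with each single array left out, and 1 without the minimum mean for VEGF-C against scrambled siRNA and 1 for NRP-2 against VEGF-C siRNA, which was NWD2 in both and was named after its values were seen.

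Arrays of a number share only that number in the labels. Deviations of same-numbered arrays correlated across genes at 0.112, 0.579 and 0.119 in the 3 comparisons, and with the replicate number as a block 9, 6 and 9 members were nominally different (18.8%, 12.5% and 18.8%), against 17.9%, 17.2% and 20.4% of all genes, so that the members' share was below that of all genes in the comparisons of NRP-2 siRNA. The block ended the nominal call of ATG3 with VEGF-C siRNA, of ATG4A, MAP1LC3B and TECPR1 for NRP-2 against scrambled siRNA and of ATG4A, ATG4C and OPTN for NRP-2 against VEGF-C siRNA. Array 1 had the higher mean of G2 and mitosis genes in each group, and its part was not tested. Over 627 values of named members under the alternatives none changed sign while nominal. Only the 30 differences nominal in the fit of all arrays could lose the threshold, and 95 of their values under the 11 alternatives did. Among the values of the other differences 8 gained it. With 2 arrays a group, only 3 residual degrees of freedom stand behind each standard error.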
